A study of Mus musculus with 6 samples.

Results

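The 10 genes described here mostly encode ligands through which a macrophage costimulates, restrains or holds on to a T cell, with 1 receptor among them. They were chosen by symbol as *Cd80*, *Cd86*, *Icosl*, *Cd274*, *Pdcd1lg2*, *Havcr2*, *Cd200*, *Cd83*, *Icam1* and *Vcam1*, and all 10 were found among the 24786 gene symbols measured. *Havcr2* encodes a receptor rather than a ligand, CD200 acts on myeloid cells, and *Cd83* is taken here as a surface marker. Poly(A) RNA of Raw264.7 cells, a mouse macrophage line grown from a tumor that Abelson murine leukemia virus had induced and labelled as C57BL/6, was sequenced in 6 libraries. 3 libraries came from cells infected with lentivirus carrying a control shRNA (sh-NC) and 3 from cells infected with lentivirus carrying an shRNA against *Etv5* (sh-*Etv5*), an ETS-family transcription factor, in both groups together with Lipofectamine, a transfection reagent. The labels place the readout at 24 or 48 h after infection. The methods attach those times to siRNA transfection, and describe infected Raw264.7 cells as kept under puromycin while they were passaged, in both groups. The sequenced cells are called stably transfected, and the time between infection and harvest is not given for them. The libraries all come from 1 cell line without T cells, and neither the shRNA that was sequenced nor whether the libraries were separate infections is stated, so the p-values below measure the spread between libraries, which may be technical.

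A T cell that recognizes antigen also reads the ligands beside it. CD80 and CD86 engage CD28, which promotes activation, and CTLA-4, which restrains it, whereas ICOSL engages ICOS. PD-L1, encoded by *Cd274*, and PD-L2, encoded by *Pdcd1lg2*, bind the inhibitory receptor PD-1, and CD200 restrains myeloid cells through its receptor CD200R1. ICAM-1 and VCAM-1 hold the partners together by binding integrins. In macrophages, *Cd80*, *Cd86* and *Cd274* are widely used as markers of an activated state.

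*Etv5* was lower in the libraries of the knockdown. It read 9.18, 9.89 and 9.39 RPKM (a read density corrected for gene length and library size) in sh-NC and 5.19, 4.91 and 5.28 RPKM in sh-*Etv5*, so that the groups did not overlap. The mean fell from 9.49 ± 0.367 to 5.13 ± 0.196 RPKM (SD, n = 3 libraries each), which is 46.0% lower. On the log2(RPKM + 1) scale the difference was -0.78 (SE 0.0565, limma adjusted p = 2.74e-07). The RPKM values of a library summed to between 320462 and 322949 in sh-NC and to between 330454 and 340257 in sh-*Etv5*, and 10409 to 10427 genes in sh-NC and 10626 to 10644 in sh-*Etv5* reached 1 RPKM. The number of reads behind these values is unknown, so no interval for counting error was computed.

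Among the 10 genes, transcripts of the CD28 ligands *Cd80* and *Cd86* and of the PD-1 ligand *Cd274* were higher in sh-*Etv5* cells, *Cd83* and *Havcr2* were lower, *Icosl* and *Icam1* did not pass the test, and *Pdcd1lg2*, *Cd200* and *Vcam1* were at or near 0 in every library. 7 of the 10 passed the filter of 1 RPKM in at least 3 of the 6 libraries and were tested. 3 were called higher and 2 lower at a limma adjusted p under 0.05, where 33.3% of the 10738 tested genes were called higher and 41.0% lower, that is 74.3% in either direction. The groups did not overlap for 5 of the 7, and for 76.4% of all tested genes. The median log2 fold change of the 7 was -0.04 and that of all tested genes was -0.05. The count and the median therefore carry no result about the set, and the size of the single changes is described in the paragraphs that follow. *Cd80*, *Cd86* and *Cd274* lay under 1 RPKM in every sh-NC library and passed the filter through their sh-*Etv5* values alone, so they could be tested only because they were high there.

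**Figure D1:**
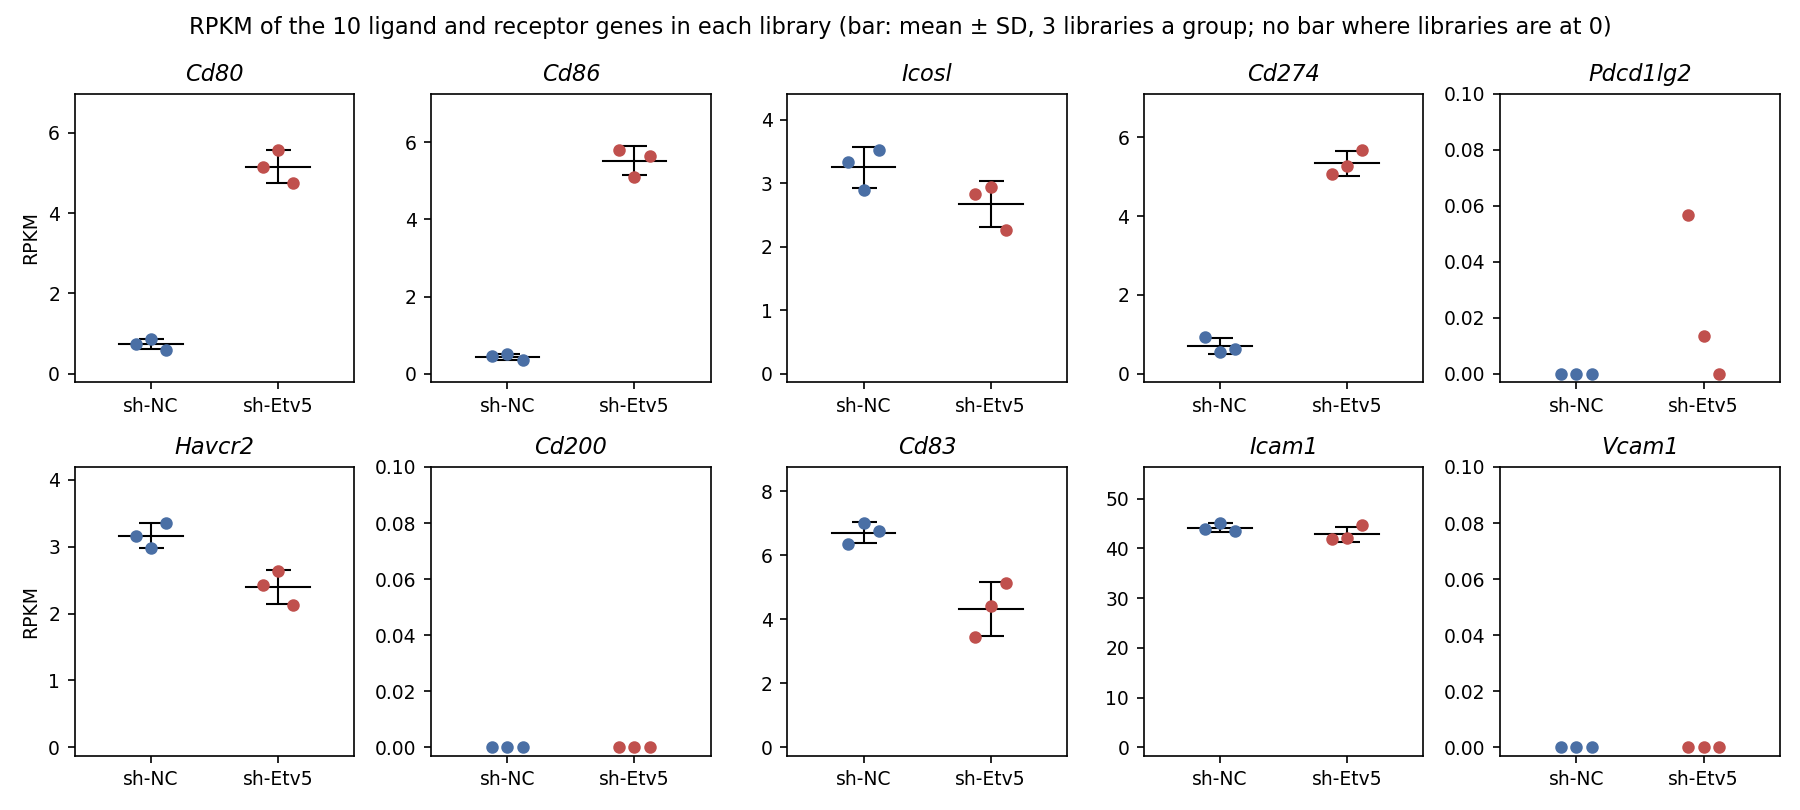
RPKM (vertical axis, linear, a scale of its own for each gene) of the 10 genes in the 3 sh-NC and the 3 sh-*Etv5* libraries, 1 point a library, with bars for the mean and SD where no library was at 0. *Cd80*, *Cd86* and *Cd274* rise from under 1 RPKM to about 5 RPKM, *Cd83* and *Havcr2* lie lower in sh-*Etv5*, and the groups overlap for *Icosl* and *Icam1*.

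*Cd80* encodes the B7 ligand with the higher affinity for CD28 and CTLA-4, and lies on the plus strand of chromosome 16 from 38455561 to 38496335 (GRCm38, GENCODE release M21). It was measured at 0.740, 0.873 and 0.604 RPKM in sh-NC and at 5.14, 5.58 and 4.76 RPKM in sh-*Etv5*. The 3 sh-*Etv5* libraries were all higher than the 3 sh-NC libraries. The mean rose from 0.739 ± 0.135 to 5.16 ± 0.412 RPKM (SD, n = 3), a ratio of 6.98. The log2 fold change on the RPKM + 1 scale was 1.83 (95% confidence interval 1.64 to 2.01, limma adjusted p = 6.84e-09), which was place 204 from the highest of the 10738 tested genes. Such a fold change understates that of a low gene, and with a pseudocount of 0.01 it was 2.80 (2.47 to 3.13).

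*Cd86*, the B7 ligand that antigen-presenting cells usually carry already at rest, lies on the minus strand of the same chromosome from 36603869 to 36666081. It had the lowest sh-NC level of the 7 tested genes, at 0.459, 0.515 and 0.362 RPKM, against 5.81, 5.11 and 5.66 RPKM in sh-*Etv5*. The mean rose from 0.445 ± 0.0775 to 5.52 ± 0.371 RPKM, a ratio of 12.4 and the highest ratio of the 7. Its log2 fold change was 2.17 (2.0 to 2.35, limma adjusted p = 1.00e-09), place 129 of 10738, and 3.62 (3.27 to 3.96) with a pseudocount of 0.01. A log2 fold change above 1 together with a limma adjusted p under 0.05 was found for 6.23% of the tested genes, and *Cd80*, *Cd86* and *Cd274* were among them. Without any filter on low values, which brought 17831 genes into the fit of which 47.8% were called, the limma adjusted p was 3.31e-05 for *Cd80*, 1.09e-05 for *Cd86* and 4.72e-05 for *Cd274*.

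*Icosl*, the ligand of ICOS, did not follow *Cd80* and *Cd86*. It lies on chromosome 10 from 78069302 to 78083913 (plus strand) and read 3.33, 2.89 and 3.53 RPKM in sh-NC and 2.84, 2.94 and 2.27 RPKM in sh-*Etv5*. The groups overlapped, since the lowest sh-NC library was under the highest sh-*Etv5* library. The means were 3.25 ± 0.328 and 2.68 ± 0.361 RPKM, and the log2 fold change of -0.21 (-0.41 to -0.01) did not pass the limma threshold after adjustment (adjusted p = 0.0559). Leaving out replicate 2 of sh-NC brought it past the threshold at -0.27 (limma adjusted p = 0.0287), and leaving out replicate 2 of sh-*Etv5* did so at -0.26 (limma adjusted p = 0.0387). Over all alternatives the adjusted p of limma ranged from 0.0126 to 0.203, with values below 0 in each.

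*Cd274*, which encodes PD-L1, rose, while its neighbor and paralog *Pdcd1lg2*, which encodes PD-L2, was barely detected. *Cd274* lies on the plus strand of chromosome 19 from 29367455 to 29388095, and *Pdcd1lg2* follows on the same strand after a gap of 22823 bases, from 29410919 to 29471161. *Cd274* read 0.930, 0.556 and 0.638 RPKM in sh-NC and 5.07, 5.27 and 5.69 RPKM in sh-*Etv5*. All sh-*Etv5* libraries were higher than all sh-NC libraries, and the mean rose from 0.708 ± 0.197 to 5.34 ± 0.315 RPKM, a ratio of 7.55. The log2 fold change was 1.90 (1.70 to 2.10, limma adjusted p = 9.34e-09, place 188 of 10738), and 2.93 (2.53 to 3.33) with a pseudocount of 0.01. *Pdcd1lg2* was listed at 0 in each library of sh-NC. Its sh-*Etv5* libraries read 0.0565, 0.0133 and 0 RPKM, and its difference in the unfiltered fit was 0.03 (-0.02 to 0.09, limma adjusted p = 0.277).

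Part of *Cd274* shares its position or its sequence with other genes. Of its exonic bases, 14.1% lie across from the antisense gene *AC119228.1*, and 12.4% of the 50-base stretches of its transcripts also occur in transcripts of other genes. The stretches were searched on both strands, so these shares can cover the same bases. Whether the counting used strand is not given in the sources used here. *Plgrkt*, a plasminogen receptor gene on the opposite strand, starts 64 bases before *Cd274* and was named after its values were seen. It rose from 13.5 ± 0.625 to 19.8 ± 1.19 RPKM, and its log2 fold change was 0.52 (limma adjusted p = 5.82e-06). No 50-base stretch of *Cd80*, *Cd86*, *Icosl* or *Cd83* was shared with another gene.

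Promoter sequences are shown for *Cd80* and *Cd274*, which rose, and for *Icam1*, an adhesion ligand that did not pass the test. They run from 250 bases before to 50 bases after the RefSeq start of each gene (GRCm38.p6, 5′ to 3′ on the strand of the gene), and capitals mark the motif found. *Cd80* is chr16:38458683-38458982 (+), with a RefSeq start 3372 bases inside the GENCODE gene, *Cd274* is chr19:29367188-29367487 (+) and *Icam1* is chr9:21015690-21015989 (+).
Cd80: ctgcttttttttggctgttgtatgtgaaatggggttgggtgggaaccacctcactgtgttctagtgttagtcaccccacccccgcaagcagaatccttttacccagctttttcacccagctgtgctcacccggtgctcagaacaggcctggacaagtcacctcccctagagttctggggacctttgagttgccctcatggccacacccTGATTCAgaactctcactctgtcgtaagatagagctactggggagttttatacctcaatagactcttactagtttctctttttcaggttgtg
Cd274: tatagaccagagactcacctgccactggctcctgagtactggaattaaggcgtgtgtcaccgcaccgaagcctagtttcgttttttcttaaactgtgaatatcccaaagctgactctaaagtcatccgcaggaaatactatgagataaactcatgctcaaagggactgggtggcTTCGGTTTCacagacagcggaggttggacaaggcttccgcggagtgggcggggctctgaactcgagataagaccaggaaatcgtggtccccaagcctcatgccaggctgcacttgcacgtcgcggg
Icam1: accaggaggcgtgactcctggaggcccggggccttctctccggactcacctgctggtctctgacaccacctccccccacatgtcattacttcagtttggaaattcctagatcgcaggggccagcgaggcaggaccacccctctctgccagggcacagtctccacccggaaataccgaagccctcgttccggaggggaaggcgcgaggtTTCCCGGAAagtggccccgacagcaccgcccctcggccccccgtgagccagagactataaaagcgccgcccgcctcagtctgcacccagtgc
The capitals mark an AP-1 motif in *Cd80* (-42 to -36 from the start), an interferon response motif in *Cd274*, read on the opposite strand (-76 to -68), and a STAT motif in *Icam1* (-42 to -34). The *Cd274* window also holds the start of *Plgrkt* on the other strand.

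The collection of RefSeq promoters used here held windows for 7 of the 10 genes and had no entry for *Cd86*, *Cd83* and *Vcam1*. 5 motifs were searched on both strands of these windows and of all 32851 promoters, and in the 7 windows the matches did not overlap. The interferon response motif GAAANNGAA was found in 1 of the 7 and in 8.56% of all promoters. The STAT motif TTCNNNGAA was found in 1 of the 7 and in 8.3% of all promoters. The AP-1 motif TGANTCA was found in 2 of the 7, *Cd80* and *Havcr2*, and in 7.81% of all promoters. N stands for any base in these motifs, and both AP-1 matches read TGATTCA. The κB motif was searched as GGGRNWYYCC, with R for A or G, W for A or T and Y for C or T. This form was found in *Pdcd1lg2* and in 4.51% of all promoters, whereas the ETS motif CGGAAGT was found in none of the 7 and in 6.42% of all promoters. Only these forms of the 5 motifs were searched, so other forms in the windows were not counted. The *Havcr2* window, for example, holds AGGAAGT, and the *Icam1* window holds TGGAAATTCC, which differs from the κB form in its first base. The shares of these sequences over all promoters were not computed. A match describes the letters of the window and not a bound site.

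The sum of *Cd80* and *Cd86* and the ratios between the B7 transcripts were computed within each library, where scaling cancels from the ratios. They were chosen after the values were seen and are given as a description. *Cd80*, *Cd86* and *Cd274* lay under 1 RPKM in every sh-NC library and passed the filter through sh-*Etv5* alone. The permutation p-values of the ratios therefore cannot decide whether a ratio shifted or was kept. *Cd80* and *Cd86* together made 1.20, 1.39 and 0.966 RPKM in sh-NC and 10.95, 10.7 and 10.4 RPKM in sh-*Etv5*. *Cd86* stood at 0.621, 0.590 and 0.599 of *Cd80* in sh-NC and at 1.13, 0.914 and 1.19 of *Cd80* in sh-*Etv5*. The groups of this ratio did not overlap, with means of 0.603 ± 0.0159 and 1.08 ± 0.144, and the exact two-sided permutation p was 0.1, the smallest that 3 against 3 libraries can give.

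The ratio of the PD-1 ligand to the CD28 ligands overlapped between the groups, and the same limits hold for it. *Cd274* was 0.776, 0.400 and 0.660 of the sum of *Cd80* and *Cd86* in sh-NC and 0.463, 0.493 and 0.546 in sh-*Etv5*. The means were 0.612 ± 0.192 and 0.501 ± 0.0420 (exact two-sided permutation p = 0.4, n = 3), and the sh-*Etv5* values lay within the range of the sh-NC values. Against *Cd80* alone the ratio of *Cd274* was 0.983 ± 0.316 in sh-NC and 1.04 ± 0.134 in sh-*Etv5* (exact two-sided permutation p = 0.9).

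**Figure D2:**
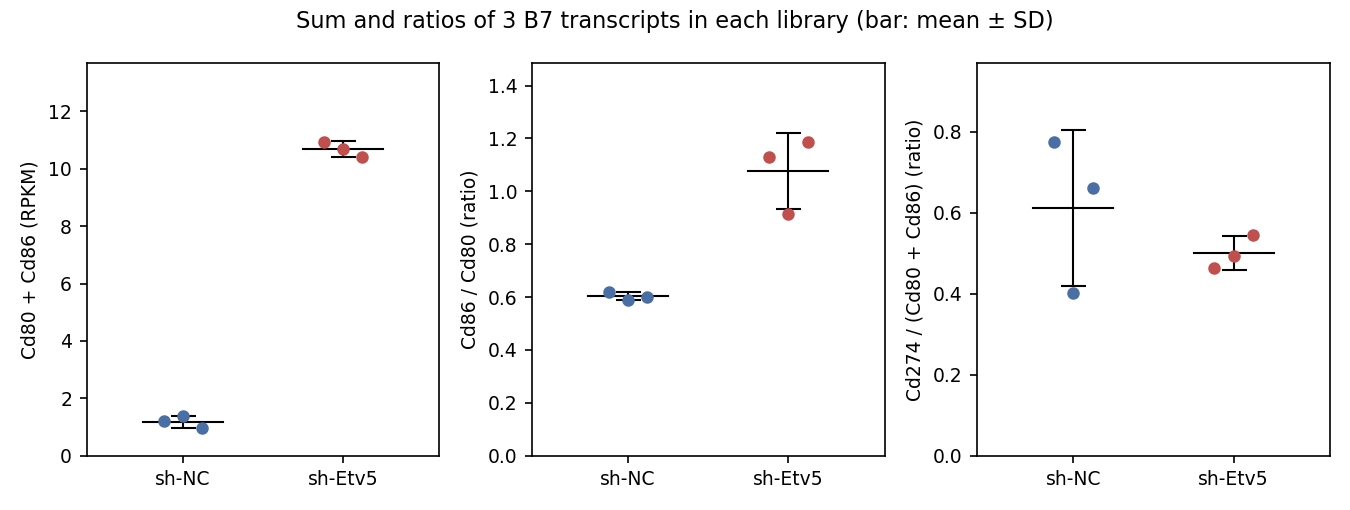
Sum of *Cd80* and *Cd86* (RPKM), ratio of *Cd86* to *Cd80* and ratio of *Cd274* to their sum, with linear axes from 0, 1 point a library and bars for the mean and SD of 3 libraries. The sum and the ratio of *Cd86* to *Cd80* are higher in every sh-*Etv5* library, and the ratio of *Cd274* to the sum overlaps between the groups.

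*Havcr2* encodes TIM-3, an inhibitory receptor found on exhausted T cells and on myeloid cells. It lies on chromosome 11 from 46454935 to 46481255 (plus strand) and read 3.16, 2.99 and 3.36 RPKM in sh-NC and 2.42, 2.63 and 2.13 RPKM in sh-*Etv5*. The groups did not overlap, and the mean fell from 3.17 ± 0.185 to 2.39 ± 0.251 RPKM, which is a change of -24.4%. The log2 fold change was -0.30 (-0.47 to -0.13, limma adjusted p = 0.00502), place 2992 from the lowest of 10738.

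*Cd83*, a surface protein of mature dendritic cells that also marks activated macrophages and B cells, fell further. On the plus strand of chromosome 13 from 43784775 to 43803132, it read 6.36, 7.01 and 6.76 RPKM in sh-NC and 3.44, 4.41 and 5.12 RPKM in sh-*Etv5*. Every sh-*Etv5* library was below every sh-NC library, but the 3 sh-*Etv5* libraries were spread more widely than those of sh-NC. The mean fell from 6.71 ± 0.328 to 4.32 ± 0.846 RPKM, a change of -35.6%. The log2 fold change was -0.55 (-0.77 to -0.32, limma adjusted p = 0.000528), place 1399 from the lowest. *Cd83* thus moved opposite to *Cd80* and *Cd86* in the same libraries. *Cd200*, on chromosome 16 from 45382135 to 45409053 (minus strand), was listed at 0 in all 6 libraries.

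Of the adhesion ligands, *Icam1* was the most abundant of the 10 genes and *Vcam1* was listed at 0 in all 6 libraries. *Icam1*, the ligand of the β2 integrins LFA-1 and Mac-1, lies on chromosome 9 from 21015985 to 21028817 (plus strand). It read 44.0, 45.1 and 43.4 RPKM in sh-NC and 41.8, 42.1 and 44.7 RPKM in sh-*Etv5*, with overlapping groups. The means were 44.2 ± 0.867 and 42.9 ± 1.56 RPKM, and the log2 fold change was -0.04 (-0.13 to 0.04, limma adjusted p = 0.337), an interval that excludes a change of the size seen for *Cd80*, *Cd86* or *Cd274*. The sign of this value turned to 0.02 under quantile normalization (limma adjusted p = 0.649), and after rescaling of the libraries to the same sum it was -0.10 and passed the test (limma adjusted p = 0.0274). Of the exonic bases of *Icam1*, 11.7% lie across from the antisense gene *Gm47079*, and 13.1% of its 50-base stretches occur in other genes on either strand, so these shares can also cover the same bases. *Vcam1*, the ligand of the integrin VLA-4, lies on chromosome 3 from 116109949 to 116129688 (minus strand), and 0.688% of its exonic bases lie across from the antisense gene *Gm43109*. *Icam4*, which begins 555 bases after *Icam1*, read 1.41 ± 0.566 RPKM in sh-NC and 1.29 ± 0.253 RPKM in sh-*Etv5* (log2 fold change -0.05, limma adjusted p = 0.767).

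**Figure D3:**
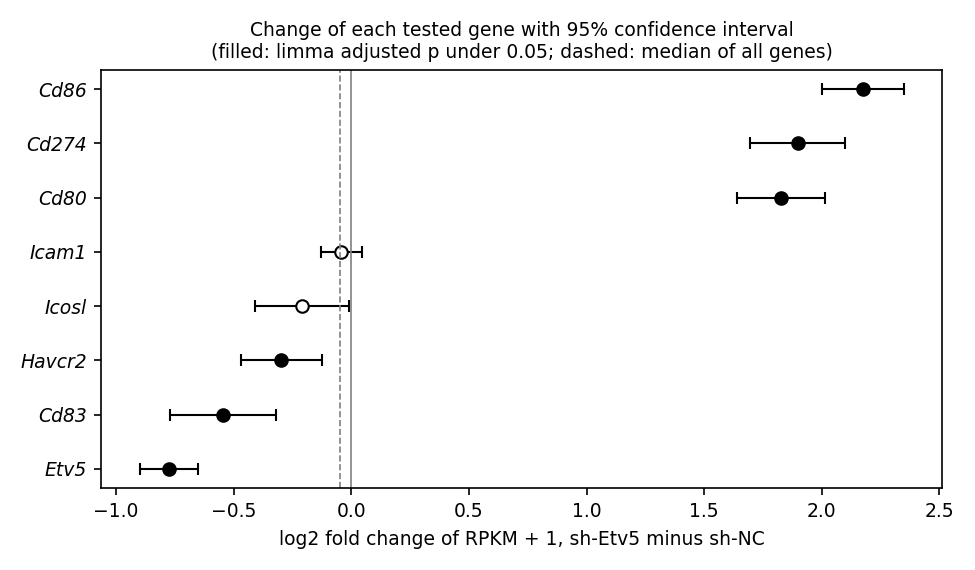
Log2 fold change of RPKM + 1, sh-*Etv5* minus sh-NC (horizontal axis), of the 7 tested genes and *Etv5*, with bars for the 95% confidence interval and a dashed line at the median of all tested genes. *Cd86* (2.17), *Cd274* (1.90) and *Cd80* (1.83) stand apart on the right, and the other values lie between -0.78 and -0.04.

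Since RPKM is scaled to gene length, the levels of the 10 genes could also be ordered within each group. In sh-NC, *Icam1* came first, followed by *Cd83*, by *Icosl* and *Havcr2*, whose ranges over the libraries overlapped, by *Cd80* and *Cd274*, whose ranges also overlapped, and by *Cd86*. In sh-*Etv5*, *Icam1* again came first, and *Cd86*, *Cd274*, *Cd80* and *Cd83* followed with ranges that overlapped between neighbors in this order. *Icosl* and *Havcr2* came next, again with overlapping ranges, and *Pdcd1lg2* after them. *Cd80*, *Cd86* and *Cd274* therefore lay below *Icosl* and *Havcr2* in every sh-NC library and above them in every sh-*Etv5* library. In these bulk libraries, fewer expressing cells and less RNA per cell cannot be told apart.

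Of 10 other immunoglobulin-superfamily ligands of T cells, 5 were tested, and 4 were called higher and 1 lower. Over all tested genes, 33.3% were called higher and 41.0% lower. The median log2 fold change of the 5 was 1.04, beside -0.05 over all tested genes. *Nectin2*, a ligand of DNAM-1 and TIGIT among the 4, passed the filter through sh-*Etv5* alone and was not called after quantile normalization. *Cd48*, a ligand of CD2 and of 2B4, read 1.39, 2.19 and 2.10 RPKM in sh-NC and 14.9, 17.0 and 19.2 RPKM in sh-*Etv5*, and its log2 fold change was 2.65 (limma adjusted p = 4.04e-09). *Pvr*, another ligand of DNAM-1 and TIGIT, rose from 6.90 ± 0.247 to 19.6 ± 0.640 RPKM, and *Vsir*, which encodes the inhibitory ligand VISTA, from 4.47 ± 0.329 to 10.2 ± 0.272 RPKM. *Cd276*, the B7 family member that fell and was named after its values were seen, went from 3.74 ± 0.270 to 2.18 ± 0.183 RPKM.

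Of 9 TNF-superfamily costimulators, 3 were tested, 2 of these were called higher and none lower, beside 33.3% and 41.0% of all tested genes. The median log2 fold change of the 3 was 0.27. Of the 6 below the filter, *Tnfsf8* and *Tnfsf14* were called lower in the unfiltered fit (limma adjusted p = 1.32e-05 and 0.0419), and the others were not called. In that fit 47.8% of all genes were called in either direction. *Tnfsf14* had means of 0.422 RPKM in sh-NC and 0.139 RPKM in sh-*Etv5*. *Cd40*, the receptor by which helper T cells license antigen-presenting cells, rose from 1.99 ± 0.155 to 10.7 ± 0.760 RPKM (log2 fold change 1.97, limma adjusted p = 9.36e-10). *Tnfsf9*, the 4-1BB ligand, was already at 36.1 ± 2.81 RPKM in sh-NC and rose to 43.6 ± 0.989 RPKM (log2 fold change 0.27, limma adjusted p = 0.000782). For *Tnfsf9*, 14.9% of the exonic bases are shared with *Gm11110* on the other strand.

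Of 14 other adhesion molecules, 6 were tested, and 3 were called higher and 1 lower, beside 33.3% and 41.0% of all tested genes. Their median log2 fold change was 0.12. *Cd47*, the ligand of SIRPα that restrains phagocytosis, rose from 22.1 ± 0.662 to 51.0 ± 1.48 RPKM, and *Cd44*, the hyaluronan receptor, from 23.9 ± 0.790 to 34.8 ± 1.11 RPKM. *Selplg*, which encodes the P-selectin ligand PSGL-1, fell from 11.7 ± 0.844 to 9.75 ± 0.418 RPKM (log2 fold change -0.24, limma adjusted p = 0.00424). *Alcam*, the third that was called higher, lost its call after rescaling to the same sum.

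The counter-receptors that the macrophages themselves expressed went in both directions. Of 16 genes, 14 were tested, and 5 were called higher and 8 lower, beside 33.3% and 41.0% of all tested genes. Their median log2 fold change was -0.21. 3 of the 8, *Cd28*, *Icos* and *Itgax*, passed the filter through sh-NC alone. *Itgb2*, the β chain that LFA-1 and Mac-1 share, was among the 5 called higher and lost its call after rescaling to the same sum, which left 4. *Itga4*, the α chain of the VCAM-1 receptor VLA-4, fell from 200.4 ± 4.77 to 16.7 ± 1.20 RPKM (log2 fold change -3.51, limma adjusted p = 3.64e-13), and 8.04% of its exonic bases are shared with *Cerkl*. *Itgam*, the α chain of the ICAM-1 receptor Mac-1, rose from 33.8 ± 0.746 to 127 ± 7.21 RPKM (log2 fold change 1.88, limma adjusted p = 3.20e-11), although 68.7% of its exonic bases are shared with the gene *Gm49368* of the same strand. *Ceacam1*, described as a partner of TIM-3, rose from 2.01 ± 0.396 to 6.93 ± 0.678 RPKM.

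Further counter-receptors are named here after their values were seen. *Pdcd1*, which encodes PD-1, the receptor of PD-L1, read 13.2 ± 0.180 RPKM in sh-NC and 5.88 ± 0.703 RPKM in sh-*Etv5* (log2 fold change -1.05, limma adjusted p = 1.73e-07), while its ligand *Cd274* rose. *Cd28* fell from 1.45 ± 0.145 to 0.345 ± 0.0801 RPKM and *Icos* from 1.09 ± 0.0477 to 0.182 ± 0.0222 RPKM. *Itgal*, the α chain of the ICAM-1 receptor LFA-1, rose from 6.05 ± 0.176 to 16.1 ± 1.13 RPKM. *Itgax*, another integrin α chain of the list, fell from 1.85 ± 0.0520 to 0.311 ± 0.0343 RPKM (log2 fold change -1.12, limma adjusted p = 2.16e-07). *Lgals9*, which encodes galectin-9, a ligand of TIM-3, rose from 54.1 ± 1.28 to 91.7 ± 1.06 RPKM, and *Cd200r1* fell from 6.28 ± 0.351 to 5.11 ± 0.190 RPKM.

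Of 8 genes that set the surface level or the shedding of such ligands, 7 were tested, and 2 were called higher and 3 lower. Over all tested genes, 33.3% were called higher and 41.0% lower. The median log2 fold change of the 7 was -0.05. Both sheddases on the list fell. *Adam10* went from 47.5 ± 1.34 to 29.0 ± 1.32 RPKM (log2 fold change -0.69, limma adjusted p = 7.88e-08) and *Adam17* from 49.6 ± 0.558 to 33.2 ± 0.313 RPKM (log2 fold change -0.57, limma adjusted p = 6.15e-08), and 4.35% of the exonic bases of *Adam17* are shared with its neighbor *Iah1*. *Cop1*, a ubiquitin ligase, rose from 2.96 ± 0.417 to 4.22 ± 0.498 RPKM. *Cmtm6*, which stabilizes PD-L1 at the surface, was the other gene called higher, and it lost its call after rescaling to the same sum.

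**Figure D4:**
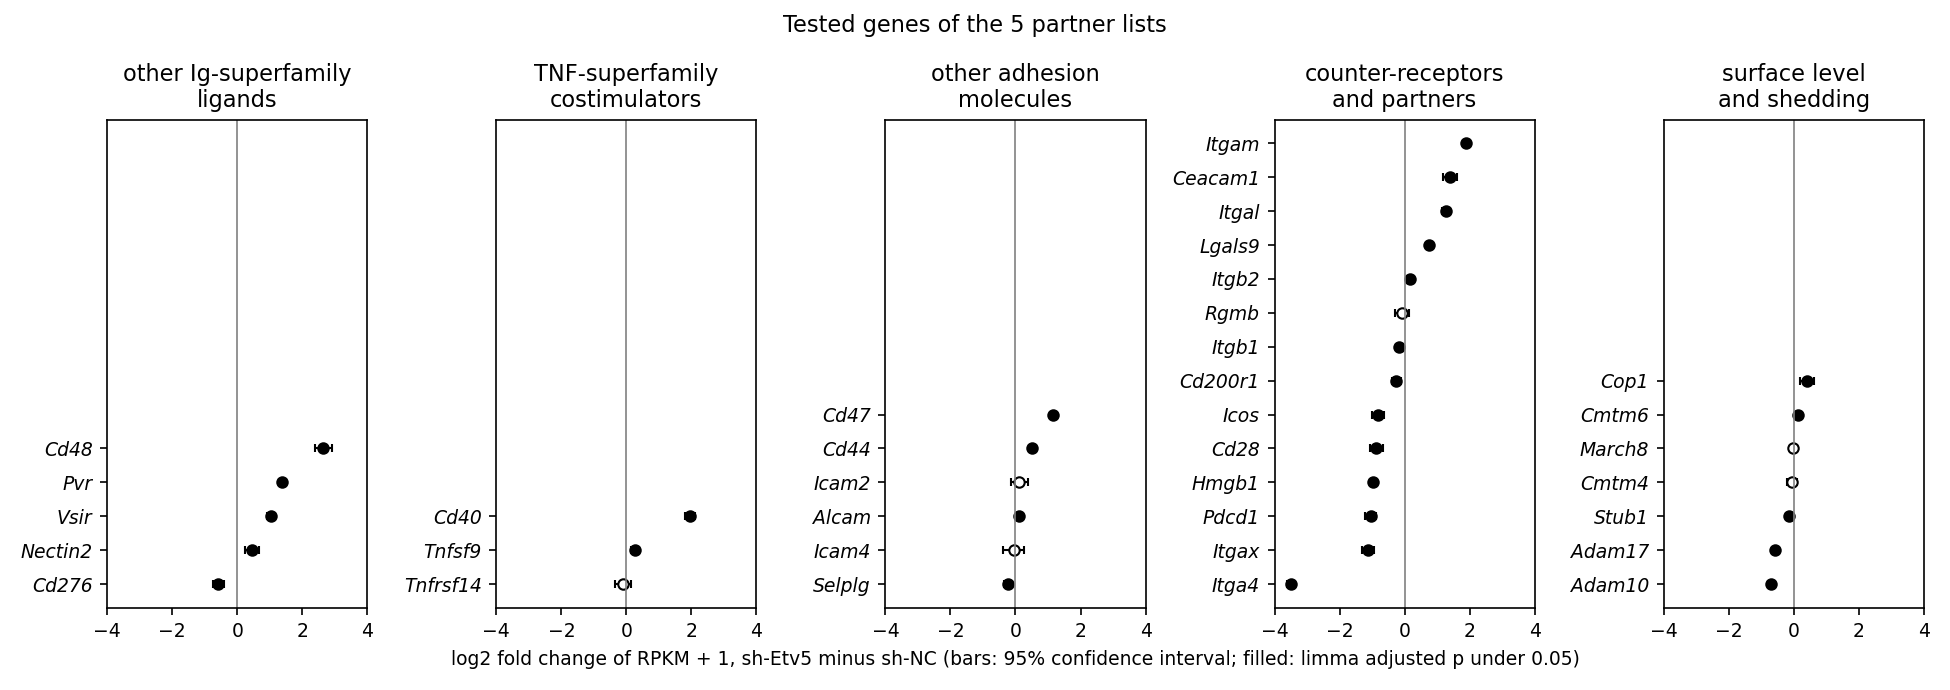
Log2 fold change of RPKM + 1, sh-*Etv5* minus sh-NC (horizontal axis), of the tested genes in the 5 lists of related genes, with bars for the 95% confidence interval and filled points for a limma adjusted p under 0.05. The other immunoglobulin-superfamily ligands reach 2.65 (*Cd48*), and the counter-receptors run from -3.51 (*Itga4*) to 1.88 (*Itgam*).

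Markers of the labelled cell type were present. Of 9 macrophage markers 8 were tested, with 3 called higher and 4 lower, beside 33.3% and 41.0% of all tested genes. The summed level of the 9 was 4333 to 4443 RPKM in sh-NC and 3406 to 3524 RPKM in sh-*Etv5*. Most of this sum was *Lyz2*, with means of 2834 RPKM in sh-NC and 2041 RPKM in sh-*Etv5*, so it does not describe the markers singly. *Lyz2*, *Csf1r*, *Cd68* and *Fcgr1* were the 4 called lower, and *Adgre1*, *Itgam* and *Cd14* were the 3 called higher. *Csf1r* had means of 428 and 244 RPKM, and *Adgre1* had means of 2.60 and 11.3 RPKM. *Mertk* was at most 0.0653 RPKM. None of 8 dendritic cell markers reached 1 RPKM in any library, *Dpp4* was listed at 0, and their sum was 0.855 to 1.15 RPKM in sh-NC and 0.374 to 0.480 RPKM in sh-*Etv5*. Of 4 T cell markers, *Lck* alone reached 1 RPKM and rose from 1.36 ± 0.255 to 3.98 ± 0.0413 RPKM, whereas *Cd3d*, *Cd3e* and *Cd3g* were at most 0.0999 RPKM. The 4 B cell markers summed to 0.0288 to 0.199 RPKM in sh-NC and 0 to 0.367 RPKM in sh-*Etv5*, with *Pax5* at 0 throughout. The 4 endothelial markers summed to 0.305 to 0.420 and 0.723 to 0.785 RPKM, and the 4 fibroblast markers to 0.0112 to 0.0238 and 0.112 to 0.164 RPKM. The part of these marker differences in the changes of the 10 genes was not tested.

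The changes were recomputed under other settings. *Cd80*, *Cd86*, *Cd274*, *Havcr2* and *Cd83* kept their direction and stayed past the threshold in every alternative that gave them a value. Without each library in turn, *Cd80* ranged from 1.77 to 1.88, *Cd86* from 2.13 to 2.22, *Cd274* from 1.83 to 1.99, *Havcr2* from -0.35 to -0.24 and *Cd83* from -0.65 to -0.42.

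**Figure D5:**
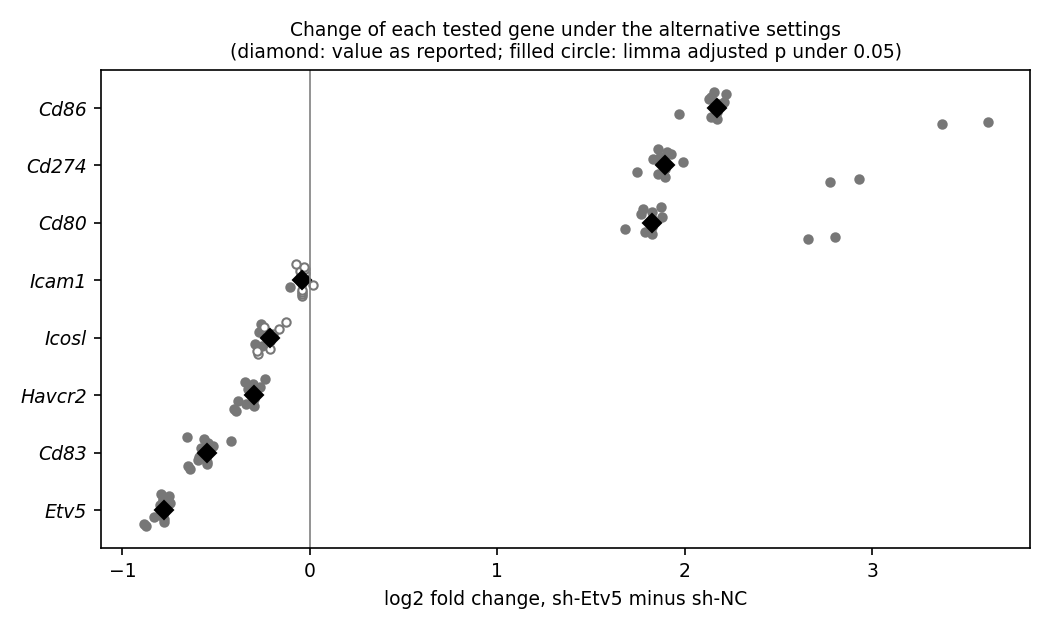
Log2 fold change, sh-*Etv5* minus sh-NC (horizontal axis), of the 7 tested genes and *Etv5* as reported (diamonds) and under each alternative setting (circles, filled at a limma adjusted p under 0.05). The circles far to the right for *Cd86*, *Cd274* and *Cd80* are the smaller pseudocounts, with up to 3.62, 2.93 and 2.80, and *Icam1* is the gene with values on both sides of 0.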

How the data were processed

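RNA of Raw264.7 cells with a control or an *Etv5* shRNA was sequenced in 3 libraries each, and groups were taken from the sample labels. The authors deposited RPKM values per gene symbol and library, computed from coverage tracks against mm10 per the submitters' processing notes. The aligner, the annotation and the handling of strand are not given in the sources used here. RPKM is already scaled to gene length and mapped reads, so a few abundant genes that change can move all others, and reads of overlapping genes may count for each. Low values showed no whole-read step, so depth is unknown.

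Genes with at least 1 RPKM in at least 3 libraries entered the test. The groups were compared on the log2(RPKM + 1) scale by limma 3.58.1 (R 4.3.3), using eBayes with its trend option, two-sided and without covariates. The call was an adjusted p (Benjamini-Hochberg) under 0.05. Ratios used exact permutation tests (SciPy 1.17.1). Positions came from GENCODE release M21 on GRCm38, the same build as mm10, and promoters from RefSeq.

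The members, the lists of related genes and the markers were chosen with earlier results of these data known. All members were named, and in each list the 3 called genes with the largest absolute log2 fold change. The nearest genomic neighbors of the members were named where exons overlap or the family is shared. Replicate numbers were checked for pairing and not used as a block. The alternatives were other pseudocounts, filters, scalings, variance model and thresholds, the block, and each library left out. The authors' single-cell and ATAC-seq data were not used here.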

Additional observations from a re-analysis of the deposited data

How the results depend on the processing

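Of 115 recomputed log2 fold changes of the tested genes and *Etv5*, 109 kept their direction and their side of the limma threshold. The exceptions were *Icosl* and *Icam1*. *Icosl* passed the threshold after rescaling to the same sum (-0.26), after quantile normalization (-0.29), and without replicate 2 of sh-NC or of sh-*Etv5*, and ranged from -0.27 to -0.13 over the libraries left out. *Icam1* passed it after rescaling to the same sum (-0.10) and turned to 0.019 after quantile normalization. The count of members called lower was therefore 4 after rescaling to the same sum. It was 1 with a mean RPKM of at least 5, and 0 with an absolute log2 fold change above 1. With a mean RPKM of at least 5, 0 members were called higher, because that filter left *Cd80*, *Cd86* and *Cd274* out of the test, as it did *Icosl* and *Havcr2*. The cause of the other changes was not tested. With an absolute log2 fold change above 1, 669 genes were called higher and 322 lower, in place of 3575 and 4399. Rescaling to the same sum gave 3124 higher and 4922 lower and moved the median of all genes by -0.05. A rescaling without the 10 highest genes of any library was added after seeing the data and changed none of these calls of members. Over the libraries left out, 3358 to 3494 genes were called higher and 4140 to 4371 lower.

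No effect shared by libraries of the same replicate number was seen, and whether they were handled as pairs is not stated. Deviations of same-numbered libraries from their group means correlated at -0.07 to 0.07 across genes. With the replicate block, 3539 genes were called higher and 4361 lower, and 7813 genes were called in both fits. *Icosl* stayed at -0.21 under the block (limma adjusted p = 0.0886), and no call of a member changed.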

Other observations

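Some genes that lie beside members (*Cd80*, *Icosl*) or beside genes of the related lists (*Lgals9*, *Cd48*) are given as values. Those picked had higher means in sh-*Etv5*, but not all neighbors of members rose. *Mrpl4*, before *Icam1*, had means of 83.5 RPKM in sh-NC and 82.4 RPKM in sh-*Etv5*. *Jarid2*, after *Cd83*, had means of 9.29 and 5.87 RPKM. *Adprh*, which lies 2857 bases before *Cd80* in GRCm38, had a mean of 28.2 RPKM in sh-NC and 46.8 RPKM in sh-*Etv5* (log2 fold change 0.71, limma adjusted p = 3.57e-08). *Dnmt3l*, a cofactor of DNA methylation that ends 5679 bases before *Icosl*, had means of 0.360 and 2.50 RPKM (log2 fold change 1.36, limma adjusted p = 4.97e-08). With that sh-NC mean, *Dnmt3l* passed the filter mainly through its sh-*Etv5* values. *Icosl* itself did not pass the test. *Nos2*, which encodes the inducible nitric oxide synthase and ends 2719 bases before *Lgals9*, had means of 0.641 and 72.8 RPKM. *Slamf7*, a receptor of the family of *Cd48* that lies 28973 bases before it, was listed at 0 in sh-NC and averaged 2.92 RPKM in sh-*Etv5*. These genes were named after their values were seen.

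*Tnfsf8*, the CD30 ligand, lay below the filter on low values. It read 0.791, 0.895 and 0.816 RPKM in sh-NC and 0.0236, 0.0407 and 0 RPKM in sh-*Etv5*, so that the groups did not overlap. It was also named after its values were seen.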
